A study of Mus musculus with 16 samples.

Results

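Kidney cortex from a 24 h treadmill group (4 libraries) was compared with cortex from sedentary mice (4 libraries), over every gene with enough counts to test. The 8 libraries, of 16 in the series, were chosen by their sample titles and not by a measured value, and 16126 of the 55414 genes in the count table passed the filter on low counts. All animals were wild-type C57BL/6J males, a common inbred strain. The labels used here name no transgene, deletion or age. Exercised mice were made to run on a treadmill for 40 minutes at 70% of their capacity, over 1 day (the 24 h group), 1 week or 2 weeks, with 4 libraries per group, and sedentary mice were not run. Whether the 24 h animals were killed on the day they ran or 24 h after a run is not clear from the labels. Sedentary titles carry a letter that differs from the one in exercised titles, and what it marks cannot be told apart from running. No label says that each library came from its own mouse, so p-values measure the spread between libraries, which may be technical.

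The cortex holds the glomeruli and most of the proximal tubule, an epithelium packed with mitochondria that reclaims filtered salt, glucose and amino acids. Running redirects blood flow from the kidney to muscle, raises body temperature and draws on circulating fuel. Cells meet such loads with conserved programmes: heat shock factor drives cytosolic chaperones, sensors in the endoplasmic reticulum (ER) drive its chaperones and its degradation machinery, and the factor ATF4 drives amino acid synthesis, transport and the charging of transfer RNA when translation is braked.

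Total counts were 39766260 to 50824795 in the 24 h libraries and 45854329 to 56957702 in the sedentary ones, and a log2 fold change had a standard error of 0.14 at the median. Levels are in CPM, read counts scaled to a common library size by edgeR's TMM method, which does not correct for gene length, so they compare libraries and not genes. The labelled tissue carried its markers: 22 proximal sodium, phosphate and glucose carriers summed to between 23693 and 27262 CPM in each of the 8 libraries and 15 podocyte genes to between 572 and 699 CPM. Of 12 adrenal markers 2 passed the filter, and Cyp11b1, Cyp11b2 and Cyp21a1, enzymes that define the adrenal cortex, were at 0 in all 8 libraries. Urothelial genes of the renal pelvis summed to 18.7, 16.7, 17.7 and 26.8 CPM in sedentary libraries 1 to 4 and to 13.2, 19.1, 29.5 and 12.05 CPM in 24 h libraries 1 to 4. Of these 10 genes 2 had a positive log2 fold change, and the median was -0.61 (-1.34 without 24 h library 3). Their mean log2 CPM, relative to the sedentary mean, was at -2.55, -0.25, 0.71 and -1.94 in 24 h libraries 1 to 4. Sedentary libraries ranged from -0.47 to 0.77. Whether the share of pelvis in the tissue differed between libraries was not tested. One library stood apart: on the first principal component (25.8% of the variance) 24 h library 3 was at 39.7, the other 24 h libraries were between -8.14 and 15.5, and sedentary libraries between -17.2 and -9.32.

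No gene passed an adjusted p of 0.05 between 24 h and sedentary libraries in edgeR's quasi-likelihood test (0 of 16126, 0%), and the smallest adjusted p was 0.0626. At an unadjusted p under 0.05 there were 739 genes with higher level at 24 h (4.58%) and 743 with lower level (4.61%). Together these were 1482, where 806 would be the average if no gene differed. How far that number strays where genes vary together was not tested. The 24 h group was wholly above the sedentary group for 573 genes (3.55%) and wholly below it for 590 (3.66%). Other tools made calls on the same counts. DESeq2 called 86 genes (0.533%, 49 higher and 37 lower), voom with quality weights 59 (0.366%, 31 higher and 28 lower), and edgeR fitted on these 8 libraries alone 27 (0.173% of 15597, 10 higher and 17 lower). All 3 of these fits called 18 genes: Asns, Gm11273, Gclc, Tubb6, Pprc1, Atf5 and Adamtsl2 with higher level at 24 h, and Trdn, Adgrg4, mt-Nd5, mt-Cytb, mt-Nd2, mt-Nd4, mt-Co1, Slc22a22, mt-Nd1, Slco1a6 and F13b with lower level.

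Library 3 of the 24 h group carried much of what stood out at the unadjusted level. It was the highest of its group in 410 of the 739 genes with higher level (55.5%, against 27.3% of all genes tested) and the lowest in 345 of the 743 with lower level (46.4%, against 29.2%). Without it, 452 genes were higher (2.77% of 16319) and 465 lower (2.85%) at an unadjusted p under 0.05, and edgeR again called 0. Leaving out 24 h library 2 instead gave 17 calls, among them Asns, Mthfd2, Alas1, Atf5, Chka and mt-Nd5. List medians against sedentary libraries are given with and without library 3, and are to be read beside a median log2 fold change of -0.0044 over all genes tested. Counts of list members are to be read beside the shares over all genes tested. At an unadjusted p under 0.05 these were 4.58% higher and 4.61% lower, and 2.77% and 2.85% without library 3. Without overlap they were 3.55% higher and 3.66% lower.

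Promoters of 6 genes are printed first, since they carry the elements through which the stress programmes named above are known to act. Each line is the 150 bases before the RefSeq gene start on GRCm38.p6, 5′ to 3′ on the gene's strand. Capitals mark a match, on either strand, to the core of the C/EBP-ATF response element (TGATGNAA) in Asns, to a pair of heat shock units (GAANNTTC or TTCNNGAA) in Hspa1a and Hsph1, and to the ER stress response element (CCAAT, 9 bases of any kind, then CCACG) in Hspa5, Creld2 and Syvn1.
Asns: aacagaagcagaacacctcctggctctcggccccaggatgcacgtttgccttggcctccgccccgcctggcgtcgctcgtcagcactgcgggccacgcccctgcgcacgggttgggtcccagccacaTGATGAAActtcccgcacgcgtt
Hspa1a: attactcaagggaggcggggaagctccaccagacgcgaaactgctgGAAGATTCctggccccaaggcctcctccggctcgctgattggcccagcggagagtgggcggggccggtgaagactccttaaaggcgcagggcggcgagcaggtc
Hsph1: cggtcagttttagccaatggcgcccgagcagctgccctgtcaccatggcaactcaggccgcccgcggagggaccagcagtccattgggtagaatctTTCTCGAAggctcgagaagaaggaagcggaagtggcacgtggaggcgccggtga
Hspa5: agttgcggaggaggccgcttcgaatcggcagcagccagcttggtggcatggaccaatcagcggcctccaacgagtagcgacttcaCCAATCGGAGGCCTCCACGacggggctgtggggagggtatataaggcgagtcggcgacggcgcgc
Creld2: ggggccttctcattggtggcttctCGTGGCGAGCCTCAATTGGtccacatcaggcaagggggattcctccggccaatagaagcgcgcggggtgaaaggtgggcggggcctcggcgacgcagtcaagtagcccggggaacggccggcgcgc
Syvn1: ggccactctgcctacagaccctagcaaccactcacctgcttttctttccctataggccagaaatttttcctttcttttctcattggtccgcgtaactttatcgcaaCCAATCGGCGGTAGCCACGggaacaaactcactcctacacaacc
The stretches lie at chr6:7693210-7693359 (minus strand) for Asns, chr17:34972157-34972306 (minus) for Hspa1a, chr5:149636316-149636465 (minus) for Hsph1, chr2:34771940-34772089 (plus) for Hspa5, chr15:88819496-88819645 (plus) for Creld2 and chr19:6046426-6046575 (plus) for Syvn1. Matches began 23 bases before the start in Asns, 104 in Hspa1a, 54 in Hsph1, 65 in Hspa5, 126 in Creld2 and 44 in Syvn1. Of 32851 promoter windows of 300 bases (250 before to 50 after a start), 3.97% held TGATGNAA, 15.1% a heat shock pair and 0.119% the ER element. Among tested list members with a window, TGATGNAA was in 7 of 27 integrated stress genes and 5 of 12 cytosolic tRNA synthetases, the heat shock pair in 14 of 24 heat shock genes, and the ER element in 9 of 25 ER genes. A list gene was counted if any of its windows held the match. The shares over all windows are per window (32851 windows of 27025 genes), so the measures are not alike. Trib3 and Chac1 also held TGATGNAA, while Atf5 did not. A match describes letters, not binding, and these lists contain textbook targets of the elements. Whether a match goes with a change in level was not tested.

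Asns and Atf5, both of the ATF4 list, gave the smallest p-values of the comparison. In what follows sedentary libraries 1 to 4 come first and 24 h libraries 1 to 4 second. Asns (ENSMUSG00000029752), asparagine synthetase, was at 5.91, 5.65, 4.79 and 3.903 CPM in sedentary libraries and at 10.5, 9.47, 11.7 and 10.2 CPM at 24 h. The groups were well separated and the 4 exercised values close together, library 3 included. Its log2 fold change was 1.05 ± 0.17 (SE; edgeR adjusted p = 0.0626; DESeq2 adjusted p = 1.61e-05), and it ran from 0.95 to 1.13 when each library was left out in turn.

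Atf5 (ENSMUSG00000038539), a bZIP factor that acts when translation is braked, was at 21.5, 20.6, 18.2 and 18.5 CPM against 30.7, 28.3, 27.5 and 29.1 CPM. All 4 exercised libraries lay above all sedentary ones, with a log2 fold change of 0.55 ± 0.09 (SE; edgeR adjusted p = 0.0626). Mthfd2 (ENSMUSG00000005667), a mitochondrial folate enzyme and known ATF4 target, was at 3.94, 4.27, 3.31 and 3.09 CPM against 5.697, 4.86, 6.799 and 6.56 CPM. Even its lowest 24 h library, number 2, was above the highest sedentary one, and its log2 fold change was 0.71 ± 0.14 (SE; edgeR adjusted p = 0.0856).

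The ATF4 list, with Asns, Atf5 and Mthfd2 included, had a positive log2 fold change in 25 of 31 tested genes. Of all 31, 9 were higher and 1 lower at an unadjusted p under 0.05, 6 had no overlap between groups, all of them higher, and the median log2 fold change was 0.17 (0.14 without 24 h library 3, with 5 higher and 0 lower). Phgdh, the first enzyme of serine synthesis, was at 10.3, 11.03, 9.91 and 7.85 CPM against 18.7, 9.197, 28.8 and 12.3 CPM, with libraries 1 and 3 high and library 2 inside the sedentary range. Trib3 and Chac1, also known ATF4 targets, had log2 fold changes of -0.30 ± 0.26 and 0.28 ± 0.30 (SE), about the size of their errors, and Sesn2, a sestrin, had -0.38 ± 0.16 (SE). These 4 genes were chosen after their values were seen. Slc38a2, an amino acid carrier of the cell surface, was at 24.5, 24.5, 27.1 and 27.2 CPM against 31.2, 30.4, 35.8 and 29.96 CPM, without overlap.

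Aminoacyl-tRNA synthetases, which load amino acids onto transfer RNA, are given by compartment. Of 20 cytosolic ones, 6 were higher and 0 lower at an unadjusted p under 0.05, 7 had no overlap, all higher, and the median was 0.13 (0.10 without library 3, with 3 higher). Yars, for tyrosine, was at 48.4, 45.4, 42.4 and 41.9 CPM against 58.6, 54.3, 68.9 and 54.8 CPM, a log2 fold change of 0.41 ± 0.09 (SE). Cars, for cysteine, was at 23.4, 22.3, 20.4 and 21.5 CPM against 25.6, 26.5, 33.3 and 27.4 CPM. Both had separate groups, with library 3 the highest. Of 17 mitochondrial synthetases 1 passed that level, Tars2, for threonine, at 36.96 ± 1.75 against 42.02 ± 2.58 CPM (SD, n = 4 each), and the median was 0.07 (0.03 without library 3). The difference between the compartments was not tested.

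**Figure D1:**
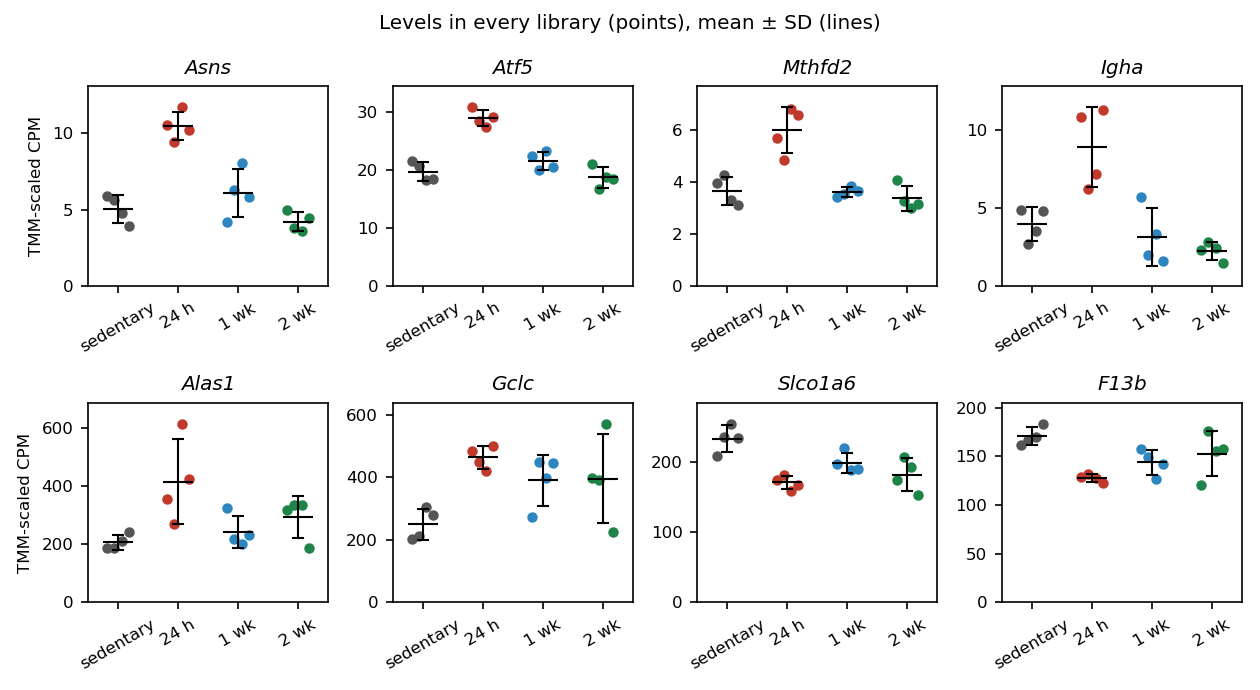
TMM-scaled CPM (vertical axes, linear, from 0) of 8 genes in all 16 libraries, by group, with points for libraries and lines for the mean ± SD (n = 4). At 24 h the points of Asns, Atf5, Mthfd2, Igha, Alas1 and Gclc lie above all sedentary points and those of Slco1a6 and F13b below them, and for Gclc the 1 week and 2 week points reach from the sedentary to the 24 h level.

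Cytosolic chaperones were highest in 24 h libraries 3 and 4. Of 29 heat shock genes, 27 had a positive log2 fold change, 19 were higher and 0 lower at an unadjusted p under 0.05, and the median was 0.48. Without library 3 the median was 0.27, with 9 higher. The list's mean log2 CPM, relative to the sedentary mean, was at 0.09, 0.19, 0.90 and 0.49 in 24 h libraries 1 to 4, and between -0.03 and 0.04 in sedentary libraries. All 4 exercised libraries were thus above the sedentary range, library 1 by little and library 3 by most.

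Hspa1b, an inducible Hsp70, was at 8.42, 6.92, 7.19 and 8.32 CPM in sedentary libraries and at 7.602, 7.93, 47.3 and 30.4 CPM at 24 h. Hspa1a, its near-identical neighbour, was at 5.75, 6.32, 4.07 and 4.56 CPM against 5.51, 4.64, 27.6 and 16.2 CPM. Libraries 1 and 2 were inside the sedentary range for both genes, and libraries 3 and 4 far above it. Log2 fold changes were 1.59 ± 0.46 and 1.38 ± 0.42 (SE; edgeR adjusted p = 0.293 and 0.314), and 0.99 and 0.76 without library 3. How reads were divided between this pair of copies is uncertain.

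In 12 of the 29 heat shock genes every exercised library was above the sedentary range, and in 0 every one was below it. Over all genes tested those shares were 3.55% and 3.66%. Hsph1, the Hsp110 partner of Hsp70, was at 101, 100.3, 108 and 123 CPM against 135, 149, 309.9 and 196 CPM, a log2 fold change of 0.87 ± 0.23 (SE; edgeR adjusted p = 0.212) and 0.57 without library 3. Ahsa1, which activates the ATPase of Hsp90, was at 99.8, 100.3, 106 and 103 CPM against 124, 144, 213 and 147 CPM. Hspb1, a small heat shock protein, was at 8.12, 6.92, 7.51 and 9.02 CPM against 10.2, 11.2, 44.7 and 16.1 CPM. In all 3 the lowest exercised library exceeded the highest sedentary one, and library 3 was the highest. Hsf1, the heat shock factor itself (named after its values were seen), was at 24.6 ± 1.03 against 28.3 ± 0.508 CPM (SD, n = 4 each). Of 14 genes of the TRiC chaperonin and prefoldin, which fold actin and tubulin, 1 was higher at an unadjusted p under 0.05, Cct7, at 156 ± 8.23 against 193 ± 23.1 CPM. The proteasome, with 38 genes tested, had 0 higher and 0 lower at that level by edgeR, and a median of 0.04 (0.03 without library 3).

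Genes of the ER were also highest in library 3. Of 30, 12 were higher and 0 lower at an unadjusted p under 0.05, 9 had no overlap, all higher, and the median was 0.14 (0.09 without library 3, with 8 higher). Creld2, an ER protein of the unfolded protein response, was at 41.4, 45.6, 50 and 51.7 CPM against 69.2, 86.8, 191 and 87.2 CPM. Its log2 fold change was 1.20 ± 0.27 (SE; edgeR adjusted p = 0.172), and 0.78 without library 3. Syvn1, the ubiquitin ligase that clears misfolded ER proteins, was at 49.6, 47.04, 41.9 and 48.5 CPM against 57.1, 61.6, 87.2 and 63.8 CPM. Sdf2l1, a partner of the chaperone BiP, was at 14.7, 20.04, 22.01 and 18.5 CPM against 27.1, 36.4, 73.5 and 28.7 CPM. The groups were separate in these 3 genes.

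Hspa5, which encodes BiP, was at 623, 662, 757 and 821 CPM against 816, 932, 1716 and 999 CPM, with library 1 just inside the sedentary range and library 3 the highest. The stress sensors of the ER membrane, Atf6, Ern1 and Eif2ak3, had log2 fold changes of -0.18 ± 0.11, -0.10 ± 0.17 and -0.10 ± 0.12 (SE), and all 3 overlapped between groups. These 4 genes were chosen after their values were seen.

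**Figure D2:**
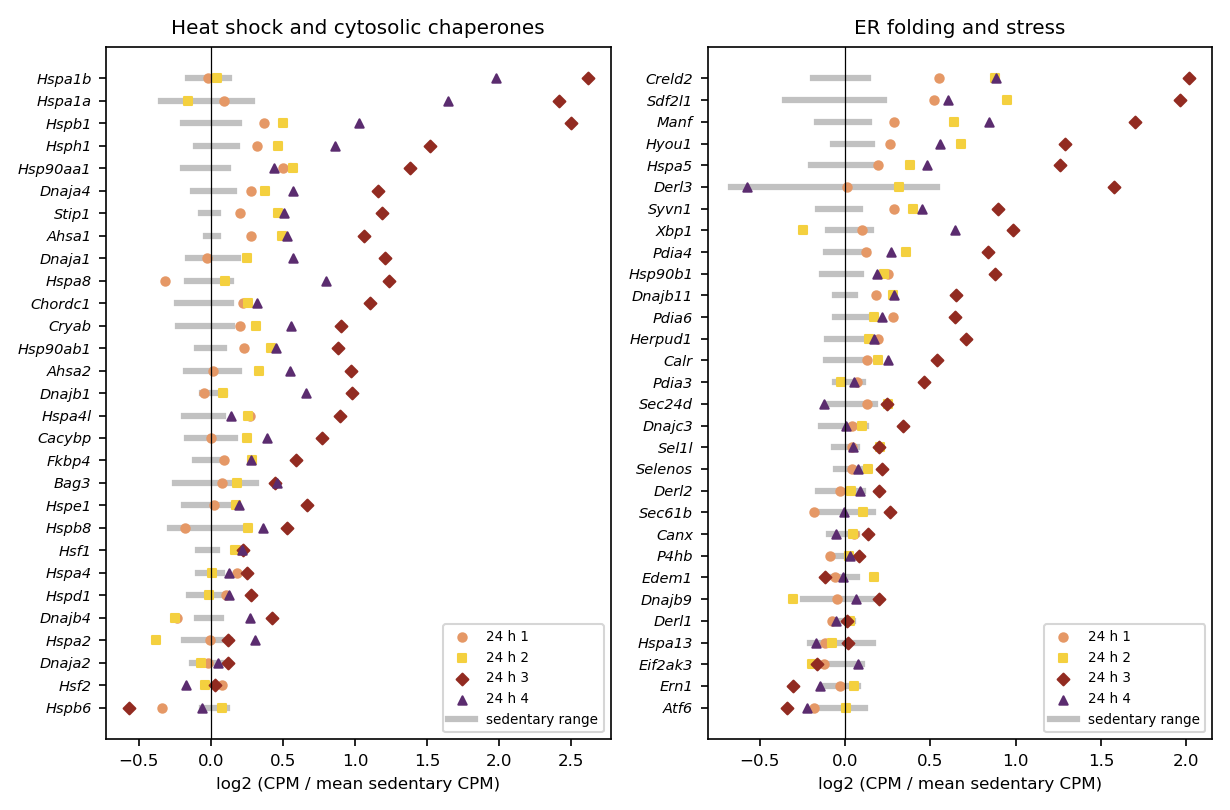
Each tested gene of the heat shock list (left) and the ER list (right) in the 4 libraries at 24 h, as log2 of CPM over the mean sedentary CPM (horizontal axes), with grey bars for the range of the 4 sedentary libraries. Library 3 (diamonds) lies farthest right for most genes, and Hspa1a and Hspa1b of libraries 1 and 2 lie within the grey bars.

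Transcripts of the mitochondrial genome, which encodes core subunits of the respiratory chain, were at lower level at 24 h, and library 3 did not stand apart in their share. They took 3.61, 3.77, 3.74 and 4.52% of counts in sedentary libraries and 2.46, 2.71, 2.54 and 2.16% at 24 h (exact permutation test over the 8 libraries, two-sided p = 0.0286, the smallest that 4 against 4 allow). In the 1 week group the share was 3.40 ± 0.588% and in the 2 week group 3.73 ± 0.540% (SD, n = 4 each), and the exact permutation test gave p = 0.0571 for 24 h against 1 week and p = 0.0286 against 2 weeks. In bulk tissue, fewer cells rich in mitochondria and less of this RNA per cell cannot be told apart, and the same holds for every cell type list below.

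Messengers of complexes I, III and IV were separate between groups. For mt-Nd5 (complex I) sedentary libraries were at 2198, 2268, 2761 and 3177 CPM and 24 h libraries at 1209, 1749, 1081 and 1313 CPM, a log2 fold change of -0.96 ± 0.19 (SE; edgeR adjusted p = 0.104). For mt-Nd4 (complex I) the values were 4408, 4498, 3872 and 5277 against 2674, 2989, 2683 and 2592 CPM. For mt-Nd1 (complex I) they were 4909, 5284, 5162 and 6058 against 3611, 3941, 3963 and 3383 CPM. No exercised library reached the lowest sedentary one for these, nor for mt-Nd2, mt-Co1 (complex IV) or mt-Cytb (complex III). Log2 fold changes were -0.77 ± 0.15 for mt-Nd2, -0.66 ± 0.13 for mt-Co1 and -0.83 ± 0.15 for mt-Cytb (SE; edgeR adjusted p = 0.0856 for each). mt-Nd6, encoded on the other strand, was at 4.65, 2.76, 8.56 and 5.23 against 2.47, 3.396, 3.93 and 2.62 CPM, with overlap.

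The ribosomal RNAs of the same genome differed in another way. mt-Rnr1 was at 412, 403, 489 and 534 CPM against 364, 339, 788 and 371 CPM, and mt-Rnr2 at 605, 511, 768 and 744 CPM against 487, 514, 1526 and 639 CPM. Library 3 was above all others for both, while 24 h libraries 1, 2 and 4 were below the sedentary range for mt-Rnr1 and at or within it, or below, for mt-Rnr2. Log2 fold changes of 0.02 ± 0.25 and 0.27 ± 0.34 (SE) became -0.36 and -0.26 without library 3. The direction of both turned without it, and that of mt-Rnr1 also with voom or a replicate block. Together they took 0.112 ± 0.0188% of counts in sedentary libraries and 0.127 ± 0.0701% at 24 h (SD, n = 4 each; exact permutation p = 0.943). Libraries of polyadenylated RNA catch ribosomal RNA only in part. mt-Co2, mt-Co3, mt-Atp6, mt-Atp8, mt-Nd3 and mt-Nd4l had between 0 and 6 counts in each of the 16 libraries, so the share leaves these messengers out.

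**Figure D3:**
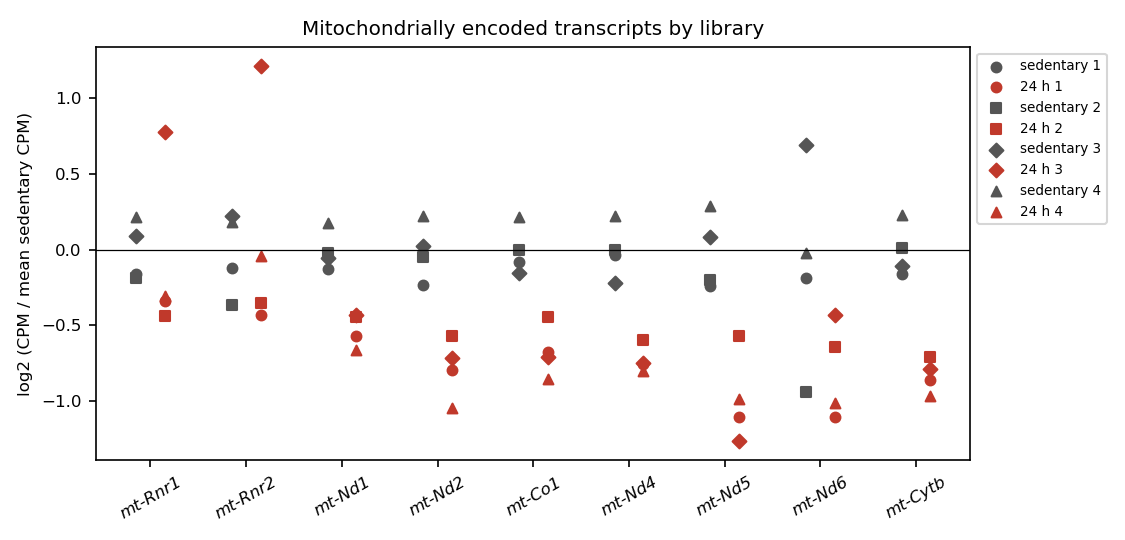
Mitochondrially encoded transcripts in each sedentary (grey) and 24 h (red) library, as log2 of CPM over the mean sedentary CPM (vertical axis), with marker shapes for library numbers. For mt-Nd1, mt-Nd2, mt-Co1, mt-Nd4, mt-Nd5 and mt-Cytb all red points lie below all grey ones, and for mt-Rnr1 and mt-Rnr2 library 3 at 24 h lies above every other point.

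Nuclear genes for the same organelle were mostly near the sedentary level. Of 47 nuclear subunits of the respiratory chain and ATP synthase, 0 were higher and 0 lower at an unadjusted p under 0.05 by edgeR, with a median of 0.06 (0.02 without library 3). Of 31 genes that copy, transcribe and process mitochondrial DNA and RNA, 1 was higher, Mgme1, a nuclease of mitochondrial DNA, at 15.5 ± 1.29 against 19.1 ± 3.39 CPM, and the median was 0.02 (0.01 without library 3). Of 75 mitochondrial ribosomal proteins, 1 was higher and 1 lower, with a median of 0.07 (0.03 without library 3). Pprc1, a coactivator related to PGC-1 alpha that is known to act on mitochondrial genes, was at 8.99, 7.32, 8.33 and 8.47 CPM against 11.02, 12.6, 12.4 and 14.2 CPM. Its groups were separate, with a log2 fold change of 0.60 ± 0.14 (SE; edgeR adjusted p = 0.172), in a list of 25 PGC-1 and citrate cycle genes with a median of 0.03 (0.02 without library 3).

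Heme and glutathione synthesis each had their limiting enzyme at higher level. Alas1, the first enzyme of heme synthesis, was at 188, 188, 212 and 241 CPM against 355, 270.4, 616 and 426 CPM, a log2 fold change of 1.01 ± 0.22 (SE; edgeR adjusted p = 0.172). Hmox1, which breaks heme down, was at 50.6, 55.8, 46.7 and 48.8 CPM against 56.9, 60.4, 81.7 and 62.4 CPM. Both had separate groups, with library 3 the highest. Gclc, the catalytic subunit for glutathione synthesis, was at 204, 211, 305 and 279.6 CPM against 483, 451, 419.7 and 501 CPM. Its exercised values were close together and library 3 was the lowest of them, with a log2 fold change of 0.89 ± 0.21 (SE; edgeR adjusted p = 0.174). The list of NRF2 targets and glutathione enzymes around Gclc and Hmox1 had 3 of 34 genes higher and 2 lower at an unadjusted p under 0.05. Over all genes tested those shares were 4.58% and 4.61%. The median of the list was 0.02 (0.02 without library 3).

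Fuel genes went in both directions. Angptl4, an inhibitor of lipoprotein lipase known to be induced by fasting, was at 51.9, 62.7, 66.9 and 73.1 CPM against 104, 119, 146 and 83.1 CPM, with separate groups. The list of PPAR-alpha targets and fatty acid oxidation had 8 of 32 genes higher and 0 lower at an unadjusted p under 0.05, with a median of 0.10 (0.02 without library 3, with 4 higher). In glycolysis, the phosphofructokinase Pfkp was at 38.7, 40.3, 32.6 and 33.6 CPM against 48.3, 44.1, 56.5 and 53.2 CPM. G6pc, which releases glucose in gluconeogenesis, was at 553, 544, 712 and 628 CPM against 393, 501, 316 and 312 CPM (log2 fold change -0.68 ± 0.17, SE; edgeR adjusted p = 0.194). All exercised libraries were thus above the sedentary range for Pfkp and below it for G6pc. Got1, an aminotransferase of the malate-aspartate shuttle, was at 98.8 ± 9.42 against 122 ± 13.4 CPM (SD, n = 4 each), without overlap.

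In lipid synthesis, Chka, which commits choline to membrane lipid, was at 25.3, 23.4, 23.9 and 22.9 CPM against 36.3, 29, 34.4 and 30.6 CPM, without overlap (edgeR adjusted p = 0.0856). The medians were 0.09 (0.08 without library 3) over 24 genes of sterol synthesis, -0.01 (0.00) over 25 of phospholipid synthesis and -0.03 (-0.03) over 22 of fatty acid synthesis.

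Several genes of small p belonged to none of these groups. Tubb6, a beta-tubulin, was at 5.805, 5.83, 5.57 and 5.44 CPM against 9.097, 7.83, 12.8 and 8.99 CPM, a log2 fold change of 0.77 ± 0.16 (SE; edgeR adjusted p = 0.148). Rcan1, an inhibitor of calcineurin, was at 68.02, 76.9, 81.1 and 90.5 CPM against 107, 129, 195 and 109 CPM. The sedentary values of Tubb6 were nearly equal, and both genes were higher in every exercised library. Taf1c, a factor of RNA polymerase I, was at 6.43 ± 0.857 against 8.99 ± 0.232 CPM, Akap8l, a nuclear protein, at 18.3 ± 1.88 against 23.8 ± 1.48 CPM, and Prr15 at 14.6 ± 0.868 against 20.1 ± 2.64 CPM (SD, n = 4 each), without overlap. Ribosome biogenesis had 4 of 26 genes higher and 0 lower at an unadjusted p under 0.05, with a median of 0.13 (0.11 without library 3, with 1 higher). Its Nop2, which methylates ribosomal RNA, was at 29.7 ± 1.92 against 35.8 ± 3.49 CPM. Of 80 cytosolic ribosomal proteins, 0 were higher and 0 lower at that level.

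Among genes that respond within minutes to hours, a few stood out. Nr4a3, an orphan nuclear receptor, was at 0.174, 0.178, 0.0633 and 0.171 CPM against 0.205, 0.297, 0.456 and 0.559 CPM, low but separate. Atf3, a stress transcription factor, was at 1.203, 0.645, 1.01 and 0.896 CPM against 1.401, 1.09, 4.34 and 1.87 CPM, with library 3 the highest. Immediate early genes had 4 of 30 higher and 0 lower at an unadjusted p under 0.05. The median was 0.14 (0.04 without library 3). Metallothioneins Mt1 and Mt2, which bind zinc and answer to glucocorticoids, were at 92.98 ± 21.8 against 129 ± 23.4 CPM and 28.2 ± 6.99 against 37.5 ± 3.29 CPM, both with overlap. Clock genes had 1 of 19 higher and 1 lower at an unadjusted p under 0.05, near the 4.58% and 4.61% of all genes tested. Ciart, a repressor of the clock, was at 1.92, 2.36, 2.05 and 3.73 CPM against 5.34, 4.39, 3.41 and 2.17 CPM, with overlap. At what hour animals died is not stated in the labels.

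Organic ion and drug carriers had a positive log2 fold change in 7 of 26 genes tested. Slco1a6, an organic anion carrier, was at 208, 236, 255 and 235 CPM against 175, 182, 159 and 168 CPM, a log2 fold change of -0.45 ± 0.10 (SE; edgeR adjusted p = 0.148). Slc22a22, a prostaglandin carrier that is not on this list, was at 114, 129.6, 147 and 132 CPM against 92.6, 101, 72.4 and 86.2 CPM. Abcb1b, a drug efflux pump, was at 6.78, 6.03, 6.64 and 8.297 CPM against 3.57, 5.404, 4.52 and 4.37 CPM. The groups were separate in all 3. Of the list, 0 were higher and 8 lower at an unadjusted p under 0.05, 7 had no overlap, all lower, and the median was -0.19 (-0.16 without library 3, with 4 lower). Library 2 was the nearest to sedentary, at -0.21, -0.05, -0.34 and -0.14 for libraries 1 to 4 in mean log2 CPM relative to the sedentary mean.

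Some other genes, enzymes among them, were also at lower level. Ces1d, a carboxylesterase, was at 563, 579, 655 and 613 CPM against 441, 476, 421 and 521 CPM. Hnmt, which inactivates histamine, was at 13.4, 15.1, 17.9 and 16.9 CPM against 11.99, 10.6, 11.1 and 9.12 CPM. F13b, a subunit of coagulation factor XIII, was at 161, 167, 170.1 and 183 CPM against 129, 132, 128 and 123 CPM (log2 fold change -0.42 ± 0.10, SE; edgeR adjusted p = 0.175). All 3 were without overlap. Of 15 androgen-dependent proximal genes, 0 were higher and 2 lower at an unadjusted p under 0.05, with a median of -0.23 (-0.14 without library 3, with 0 lower). Lamp2, a membrane protein of lysosomes, was at 669 ± 44.2 against 564 ± 26.9 CPM (SD, n = 4 each), within a list of 30 lysosome and autophagy genes with a median of 0.04 (0.00 without library 3).

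The renin-angiotensin list had 0 of 12 genes higher and 4 lower at an unadjusted p under 0.05, 0 without overlap, and a median of -0.22 (-0.15 without library 3, with 1 lower). Mme, the peptidase neprilysin, was at 92.1, 103, 112 and 128 CPM against 83.7, 98.96, 82.9 and 75.7 CPM, and Mas1, the receptor of angiotensin-(1-7), at 1.902 ± 0.545 against 1.24 ± 0.451 CPM. Renin itself, Ren1, was at 74.9, 100.4, 59.5 and 63.9 CPM against 155, 81.7, 129 and 71.4 CPM, with libraries 1 and 3 above the sedentary range and libraries 2 and 4 inside it. Nos2, the inducible nitric oxide synthase, was at 0.889, 0.712, 0.97 and 0.917 CPM against 0.504, 0.545, 0.456 and 0.409 CPM (log2 fold change -0.87 ± 0.20, SE; edgeR adjusted p = 0.172). At these low levels its groups were still separate.

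Genes named for the size of a lower level included Wfdc16, a protease inhibitor gene, at 6.33, 7.05, 5.23 and 5.63 CPM against 2.13, 4.19, 1.76 and 3.53 CPM. Adgrg4, an adhesion receptor, was at 5.25, 6.005, 5.95 and 6.66 CPM against 3.85, 3.62, 2.13 and 2.28 CPM. Prlr, the prolactin receptor, was at 10.7, 10.5, 8.96 and 21.2 CPM against 3.57, 7.02, 5.13 and 4.73 CPM, with a log2 fold change of -1.34 ± 0.57 (SE). In all 3 the groups were separate, and sedentary library 4 was far above the other sedentary ones for Prlr. Cirbp and Rbm3, RNA-binding proteins known to be induced by cold, were at 22.4, 26.3, 20.4 and 20.1 CPM against 17.02, 17.97, 8.19 and 17.6 CPM and at 57.6, 64.3, 79.8 and 77.2 CPM against 44.6, 58.1, 46.1 and 53.2 CPM. Cirbp was separate, with library 3 the lowest, and Rbm3 overlapped through library 2 alone. Hist1h1c, a linker histone, was at 148 ± 19.4 against 111 ± 12.4 CPM (SD, n = 4 each), with overlap.

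Genes of tubular injury were uneven over the exercised libraries. Of 26, 11 were higher and 0 lower at an unadjusted p under 0.05, with a median of 0.33 (0.25 without library 3, with 9 higher). Relative to the sedentary mean, the list was at 0.20, -0.07, 0.65 and 0.52 in 24 h libraries 1 to 4, so that library 2 was inside the sedentary range of -0.13 to 0.14. Havcr1, the kidney injury molecule KIM-1, was at 1.83, 3.09, 3.16 and 5.67 CPM against 6.13, 3.42, 6.97 and 25.9 CPM. Lcn2, the injury marker NGAL, was at 2.09, 2.402, 1.41 and 2.07 CPM against 2.95, 1.93, 4.67 and 6.604 CPM. Library 4 was the highest and library 2 inside the sedentary range for both, with edgeR adjusted p of 0.473 and 0.447. Tpm1, a tropomyosin on the same list, was at 74.8, 74.5, 77.2 and 78.6 CPM against 87.2, 89.3, 106 and 102 CPM, without overlap. Clu, clusterin, a secreted chaperone, was at 327, 279, 270.3 and 189 CPM against 395, 351, 446 and 439 CPM, also without overlap.

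Markers of interstitial and immune cells varied between the exercised libraries. Fibroblast and matrix genes had 7 of 19 higher and 0 lower at an unadjusted p under 0.05, 0 without overlap, and a median of 0.30 (0.13 without library 3, with 3 higher). Col1a1, a chain of collagen I, was at 19.1, 18.8, 14.5 and 18.8 CPM against 32.1, 19.04, 26.6 and 28.7 CPM, with library 2 inside the sedentary range. Macrophage genes were at 0.28, -0.34, 0.54 and -0.17 in libraries 1 to 4 relative to the sedentary mean, with a sedentary range of -0.20 to 0.11, 1 of 21 higher at an unadjusted p under 0.05 and a median of 0.15 (-0.04 without library 3). That gene was Cd68, a lysosomal protein of macrophages, at 3.31, 2.74, 3.18 and 2.71 CPM against 3.66, 3.22, 5.19 and 3.59 CPM. C3, the central complement component, was at 11.2, 11.9, 8.22 and 13.01 CPM against 26.5, 12.7, 15.9 and 20.1 CPM, with library 2 inside the sedentary range. Library 2 was below the sedentary range for macrophage genes, and for fibroblast and matrix genes it was inside it, at 0.44, -0.10, 0.64 and 0.09 for libraries 1 to 4 against -0.20 to 0.22. The part of cell content in the other results was not tested.

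Lymphocyte genes were high in 24 h library 1. T and natural killer genes summed to 10.4, 9.45, 11.5 and 10.3 CPM in sedentary libraries and to 16.9, 8.58, 7.97 and 8.58 CPM at 24 h. B and plasma cell genes summed to 36.9, 29.1, 43.8 and 35.96 CPM and to 124, 37.98, 55.4 and 42.9 CPM. Library 1 had the highest sum of all 8 for both. Of 16 T and natural killer genes tested, 12 had a positive log2 fold change. At an unadjusted p under 0.05, 0 were higher and 1 lower. Their median was 0.11 (0.22 without library 3, -0.25 without library 1). Of 15 B and plasma cell genes tested, 7 had a positive log2 fold change, with 4 higher and 0 lower at that level. The median there was -0.05 (0.23 without library 3, -0.18 without library 1). It depended on the filter: it was 1.195 when genes needed at least 1 CPM in 4 libraries. Fitted on the sedentary and 24 h libraries alone it was 0.53. Jchain, which joins IgA and IgM, was at 0.994, 0.578, 1.24 and 0.683 CPM against 8.03, 1.29, 1.69 and 1.55 CPM, separate but far highest in library 1. Igha, the constant region of IgA, was at 4.88, 2.67, 3.54 and 4.78 CPM against 10.9, 6.22, 7.19 and 11.3 CPM, with libraries 1 and 4 the highest and a log2 fold change of 1.16 ± 0.29 (SE; edgeR adjusted p = 0.209). Gzma, a granzyme of cytotoxic cells, was at 0.401, 0.245, 0.295 and 0.384 CPM against 0.205, 0.198, 0.0217 and 0.172 CPM, with all exercised libraries lower.

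Nephron segments are given by list. Of 14 thick ascending limb genes, 15 podocyte genes and 20 endothelial genes, 0 were at an unadjusted p under 0.05 by edgeR, with medians of -0.01, 0.04 and -0.01 (0.01, 0.01 and -0.10 without library 3). Among 22 proximal sodium, phosphate and glucose carriers 1 was, Slc5a1, the glucose carrier SGLT1, at 85.5, 83.5, 78.8 and 85.9 CPM against 106, 90.1, 114 and 90.5 CPM. Slc9a3, the sodium-hydrogen exchanger NHE3, was at 93.1, 84.2, 83.04 and 83.1 CPM against 73.95, 89.2, 68.3 and 76.4 CPM. Slc12a3, the thiazide-sensitive carrier of the distal convoluted tubule, was at 404 ± 68.2 against 458 ± 71.5 CPM (SD, n = 4 each). Both overlapped, with edgeR adjusted p of 0.79 and 0.723.

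Distal convoluted and connecting tubule genes had 1 of 18 higher and 1 lower at an unadjusted p under 0.05, with a median of 0.09 (0.06 without library 3). These counts were near the 4.58% and 4.61% of all genes tested. For principal cells the counts were 2 of 15 higher and 1 lower, with a median of 0.10 (0.15). For intercalated cells they were 2 of 16 higher and 0 lower, with a median of 0.12 (0.13). Emx1, a homeobox gene of the distal tubule list, was at 53.1, 49.2, 49.6 and 42.6 CPM against 64.7, 64.3, 64.1 and 55.7 CPM, without overlap. Foxi1, the master factor of intercalated cells, was at 20.5, 20.02, 18.9 and 17.2 CPM against 29.96, 25.3, 19.9 and 21.3 CPM, with library 3 inside the sedentary range. Aqp4, a water channel of the collecting duct, was at 17.9, 17.6, 19 and 31.5 CPM against 10.7, 16.6, 7.56 and 18.3 CPM, with libraries 1, 2 and 3 below the sedentary range. Slc7a9, a cystine carrier of the proximal brush border, was at 129, 125, 125 and 139 CPM against 117, 104, 104 and 104 CPM, without overlap.

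**Figure D4:**
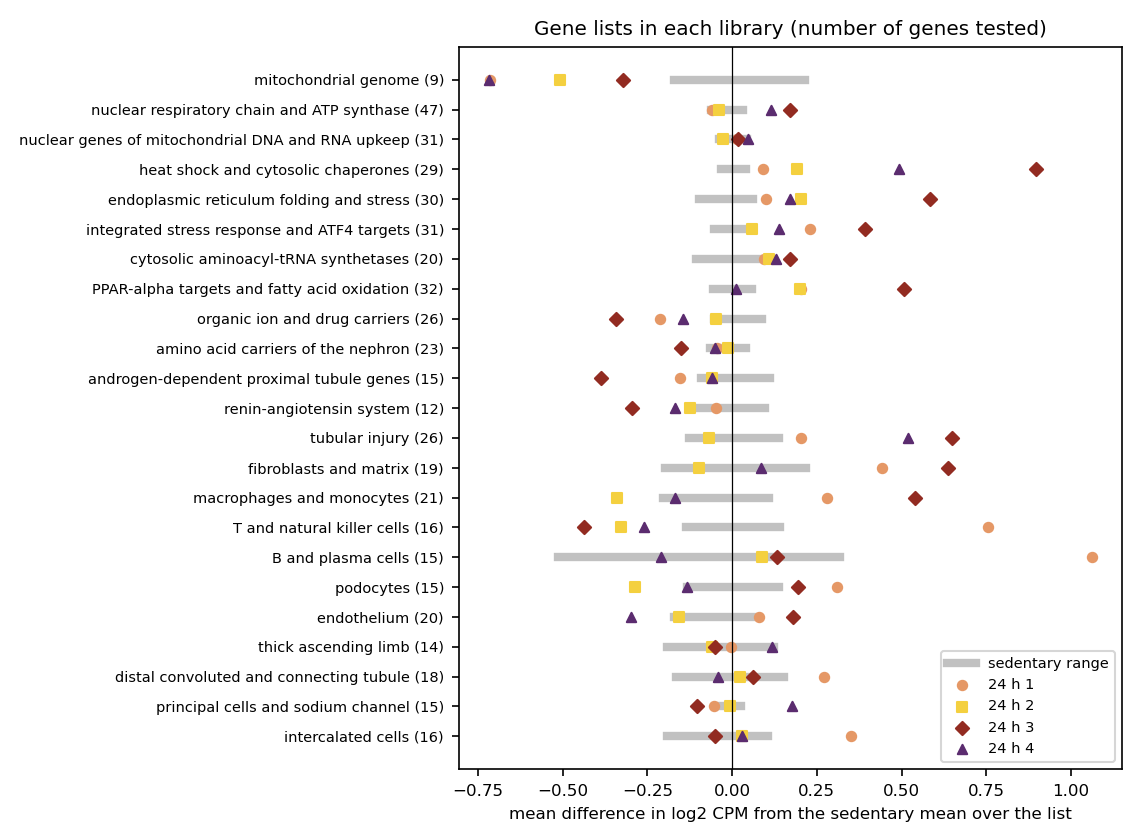
Mean over each list's tested genes of the difference in log2 CPM from the sedentary mean (horizontal axis), for each library at 24 h, with grey bars for the range of the sedentary libraries and the number of genes in brackets. Library 3 (diamonds) is far out for chaperones, carriers and androgen-dependent genes, library 1 (circles) for lymphocyte genes, and library 2 (squares) lies within the grey bars for injury and fibroblast genes.

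The 24 h group was also set against the longer groups in the same fit over 4 groups, in which sedentary libraries shared in the filter and the estimate of spread and the same 24 h libraries served in every contrast. Against 2 weeks edgeR called 4 genes (0.0248%), all higher at 24 h. At an unadjusted p under 0.05, 721 genes were higher (4.47%) and 871 lower (5.4%), and with upper-quartile scaling the split was 875 higher and 696 lower. Asns was at 4.99, 3.79, 3.63 and 4.48 CPM in the 2 week libraries, a log2 difference of 1.32 ± 0.17 (SE; edgeR adjusted p = 0.00403). Atf5 was at 21.1, 16.6, 18.7 and 18.5 CPM (0.63 ± 0.09, SE; edgeR adjusted p = 0.0118) and Mthfd2 at 4.07, 3.26, 2.98 and 3.16 CPM (0.84 ± 0.14, SE; edgeR adjusted p = 0.0386). Igha was at 2.28, 2.82, 2.41 and 1.47 CPM (1.97 ± 0.31, SE; edgeR adjusted p = 0.0305). No 2 week library reached a 24 h library in these 4 genes. Over 18 alternative fits Asns was called in 18, Atf5 in 13, Igha in 10 and Mthfd2 in 9, with adjusted p of up to 0.0389, 0.111, 0.198 and 0.231. Fitted on the 24 h and 2 week libraries alone, edgeR called 2, Asns and Igha, with adjusted p of 0.111 for Atf5 and 0.231 for Mthfd2. Without 24 h library 1 or 4, or 2 week library 2 or 4, Asns alone was called.

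Against 1 week edgeR called 0 genes (0%) and DESeq2 59, and at an unadjusted p under 0.05 by edgeR 791 were higher at 24 h (4.91%) and 402 lower (2.49%). Without 24 h library 2 edgeR called 19, and without 1 week library 1 it called Igha. Asns was at 4.19, 6.304, 8.07 and 5.83 CPM at 1 week, Atf5 at 22.3, 19.9, 23.2 and 20.5 CPM and Mthfd2 at 3.42, 3.52, 3.85 and 3.67 CPM. All lay below every 24 h library, with an edgeR adjusted p of 0.203 for each. Igha was at 5.72, 1.96, 3.32 and 1.57 CPM, again below. Macrophage genes had 15 of 21 higher at 24 h than at 1 week and 14 higher than at 2 weeks at an unadjusted p under 0.05, with medians of 0.56 and 0.53. Fibroblast and matrix genes had 13 of 19 higher than at 1 week and 9 than at 2 weeks, with medians of 0.60 and 0.35. Against sedentary libraries only 1 of 21 macrophage genes and 7 of 19 fibroblast and matrix genes were higher at that level. Medians there were 0.15 and 0.30 (-0.04 and 0.13 without library 3). The medians against the longer groups all include 24 h library 3. Col1a2, the other chain of collagen I, was at 33.8 ± 4.63 CPM in sedentary libraries, 47.1 ± 9.95 CPM at 24 h, 27.96 ± 2.704 CPM at 1 week and 32.4 ± 5.23 CPM at 2 weeks (SD, n = 4 each).

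Some genes were at similar mean levels in the 3 exercised groups. Nos2 was at 0.479 ± 0.0592 CPM at 24 h, 0.541 ± 0.0505 CPM at 1 week and 0.518 ± 0.0668 CPM at 2 weeks, beside 0.872 ± 0.112 CPM in sedentary libraries (SD, n = 4 each). Gclc was at 464 ± 35.98, 391 ± 82.02 and 396 ± 142 CPM in the same order, and its log2 differences between 24 h and the longer groups were 0.25 ± 0.21 and 0.23 ± 0.21 (SE). G6pc was at 380.4 ± 88.5, 468 ± 47.5 and 397 ± 96.4 CPM, beside 609 ± 78.4 CPM in sedentary libraries. The messenger mt-Cytb was lower at 24 h than in either longer group, at 6661 ± 502 CPM against 10256 ± 2205 CPM at 1 week and 11195 ± 2186 CPM at 2 weeks. Its log2 differences were -0.62 ± 0.15 and -0.75 ± 0.15 (SE; edgeR adjusted p = 0.251 and 0.154).

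**Figure D5:**
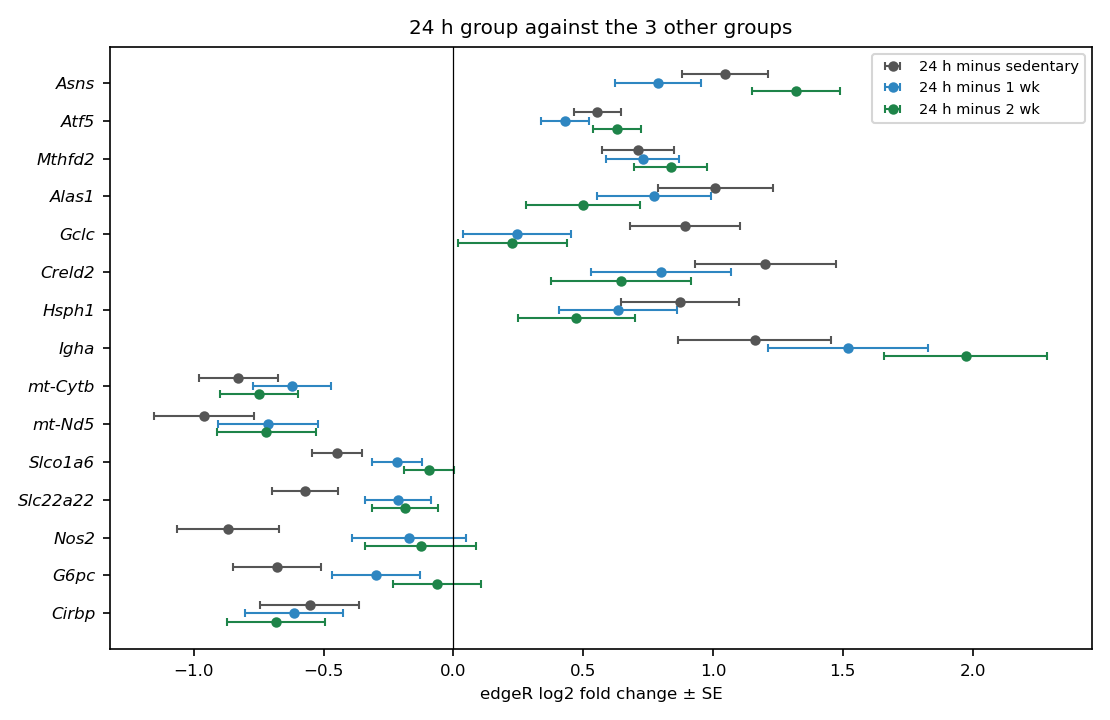
edgeR log2 fold change ± SE (horizontal axis) of 15 genes at 24 h against sedentary (grey), 1 week (blue) and 2 week (green) libraries, all with the same 24 h libraries. Values for Asns, Atf5, Mthfd2, Igha, mt-Cytb and Cirbp lie well away from 0 in all 3 contrasts, while those for Gclc, Slco1a6, Nos2 and G6pc are nearer 0 against 1 and 2 weeks than against sedentary libraries.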

How the data were processed

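The authors deposited 1 table of raw read counts per gene ID for kidney cortex libraries made from polyadenylated RNA with a stranded kit, per the labels' protocols. Per the submitters' processing notes FastQC 0.10.1 and HTSeq 0.10.0 were used with mm10/GRCm38, while no label names the aligner, annotation release or strand setting. Columns were matched to the 16 titled samples by name, and 8 columns that matched no sample were not used. Gene names came from GENCODE M21 (94.08% of IDs). Genes were filtered with edgeR's filterByExpr, scaled by TMM and tested in 1 edgeR 4.0.16 quasi-likelihood fit over 4 groups (R 4.3.3), with Benjamini-Hochberg adjustment over 16126 genes and a threshold of 0.05. DESeq2 1.42.0, voom in limma 3.58.1, other scalings, filters and left-out libraries were alternatives. The fitting script was tested on simulated data. SD is between libraries and SE is of the fitted fold change. Libraries held 39766260 to 66852397 counts.

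Genes were named by rule: 14 per direction with the smallest p, and 6 with the largest change among those at an unadjusted p under 0.05. Both sets were limited to genes without overlap and at a mean log2 CPM of 0 or more. Both left out clone and predicted names, such as Gm11273. The rule also took 2 per list at an unadjusted p under 0.05, and a short fixed set. The comparison and the 59 gene lists were chosen with earlier results of these data known.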

Additional observations from a re-analysis of the deposited data

Results flagged for a closer look

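A library was marked where its distance to the nearest other of its group of 4, divided by the group's range, was above Dixon's 95% critical value. Expression was judged on the log2 CPM scale and is printed in CPM, and judged in CPM the high values of Prlr in sedentary library 4, Acta2 in sedentary library 1, Creld2, Hspb1 and mt-Rnr2 in 24 h library 3 and Havcr1 in 24 h library 4 would be marked too. This held for 12 of 236 groups examined, and chance marks about 1 in 20. At 24 h, library 1 was high for Jchain (8.032 CPM, the others 1.289 to 1.694) and Slc7a9 (117.4 CPM, the others 103.7 to 104). Library 3 was high for mt-Rnr1 (788.2 CPM, the others 339.4 to 371.2) and Idh3a (205.3 CPM, the others 174.5 to 178.9). Library 3 was low for Cirbp (8.19 CPM, the others 17.02 to 17.97) and Gzma (0.02172 CPM, the others 0.1721 to 0.2055). Library 4 was low for Emx1 (55.73 CPM, the others 64.13 to 64.7).

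Among sedentary libraries, library 1 was high for Slc9a3 (93.1 CPM, the others 83.04 to 84.18). Library 3 was low for Col1a1 (14.55 CPM, the others 18.79 to 19.09) and Nr4a3 (0.06326 CPM, the others 0.1706 to 0.1779). Library 4 was high for Aqp4 (31.53 CPM, the others 17.64 to 19) and low for Rhbg (11.26 CPM, the others 15.37 to 16.26).

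The 24 h and 2 week groups differed by edgeR's test in 4 genes. The log2 difference, 24 h minus 2 weeks, was 1.32 for Asns (edgeR adjusted p = 0.004035), 0.6297 for Atf5 (edgeR adjusted p = 0.01183), 0.8366 for Mthfd2 (edgeR adjusted p = 0.03856) and 1.973 for Igha (edgeR adjusted p = 0.03053).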

How the results depend on the processing

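Against sedentary libraries, where edgeR called 0 genes, DESeq2 called 86, voom 59, edgeR without a filter 3, edgeR with a replicate block 3 and edgeR on the compared groups alone 27. Leaving out 1 library gave 0 to 17, with 17 without 24 h library 2 and 1 (Zfp977) without sedentary library 1. Against 1 week (0 in edgeR) DESeq2 called 59, and leaving out 1 library gave 0 to 19. Against 2 weeks (4 in edgeR) DESeq2 called 39, the legacy quasi-likelihood method 2, the replicate block 12, and the compared groups alone 2, and leaving out 1 library gave 1 to 7. The difference in mitochondrial share, 24 h minus sedentary, was -1.446 percentage points in the full set. It was at -1.545 to -1.242 when 1 library was left out (exact permutation p = 0.0571 each, the smallest that 3 against 4 allow). With a replicate block it was -1.446 (exact permutation p = 0.125, the smallest that 4 pairs allow). Direction turned in 3 transcripts, and the cause was not tested: mt-Rnr1 was at -0.1176 with voom, -0.03982 with the replicate block and -0.3599 to 0.1435 when 1 library was left out (-0.03077 and -0.03565 without sedentary library 1 or 2), mt-Rnr2 at -0.2641 to 0.4438, and mt-Tt at -0.2417 to 0.06852. Same-numbered sedentary and 24 h libraries correlated at 0.0709, -0.00128, 0.0505 and -0.0537 in their deviations. These values cannot show whether the number marks a shared day or batch, and the labels do not say. Of 2086 values of named genes under alternatives 7 turned direction and 106 newly passed the threshold. Of 1025 list medians 55 had the other sign, mostly in lists with medians near 0. Depth limits genes below about 1 CPM, such as Gzma and Nr4a3.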

Other observations

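By class of gene, 398 processed pseudogenes had 13.1% higher and 2.01% lower at an unadjusted p under 0.05 by edgeR, with a median log2 fold change of 0.15, where 14062 protein-coding genes had 4.39% and 4.52%. Reads of a pseudogene cannot be told apart with certainty from those of its parent gene. By chromosome, the 1221 genes tested on chromosome 7 had 7.37% higher and 1.39% lower, and the 626 on chromosome 13 had 3.51% higher and 9.58% lower. On the X chromosome, 493 genes had 2.43% higher and 7.30% lower. One abundant ID without a name took 0.582 ± 0.218% of counts in sedentary libraries and 0.840 ± 0.291% at 24 h (SD, n = 4 each; exact permutation p = 0.143). These classes were looked at after the data were seen.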
